A study of Mus musculus with 6 samples.

Results

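The 78 genes described here encode the proteins of the mitochondrial ribosome, as chosen by their symbols: a gene was a member if its symbol began with Mrpl or Mrps followed by a digit. Of the 32285 genes in the deposited tables, 49 carried large subunit symbols (Mrpl) and 29 carried small subunit symbols (Mrps). The measurements were UMI counts, that is counts of distinct captured RNA molecules, from droplet single-cell RNA-Seq of islets of 12- to 14-week-old mice on a C57/BL6 background (C57BL/6J in the study's methods). Of the 6 libraries, 3 came from β14-3-3ζ–KO mice, in which Ins1-CreThor deleted the floxed exon 4 of Ywhaz, the gene of 14-3-3ζ, and 3 from WT littermates, which carried the same Cre. Since Ins1 drives the Cre, deletion was directed at β cells, and the other cell types of KO islets were not targeted. All islets recovered overnight before dispersion, and dead cells were removed from both genotypes.

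The mitochondrial ribosome translates only the few mRNAs that the mitochondrial genome encodes, all of which give subunits of the respiratory chain and ATP synthase. Its own RNA is mitochondrial, but every one of its proteins is encoded in the nucleus, translated in the cytosol and imported. In β cells the respiratory chain links glucose metabolism to ATP and so to insulin release, and the comparisons below ask whether these genes differ between WT and KO β cells and between β cells and the other cells of the islet. By structure the members fall into proteins with a bacterial counterpart and proteins particular to mitochondria. The symbols are not a perfect guide. Mrps30 and Mrps18a encode proteins that sit in the large subunit, and Mrps36 encodes a component of the α-ketoglutarate dehydrogenase complex and not of the ribosome.

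Cells were assigned to types by their dominant hormone or by canonical markers, and UMIs were summed in each library and type. Of 43445 barcodes holding 514398069 UMIs, 27004 passed the filters and 14058 were assigned. There were 6037 β cells, with at least 785 in each library, 624 α cells, 546 δ cells, 219 PP cells, 1312 endothelial cells, 607 macrophages and 2840 B cells. Mesenchymal, T, ductal and dendritic cells fell under 10 cells in at least 1 library and were not compared. All of the markers fixed for β cells (8 of 8), endothelial cells (6 of 6), macrophages (7 of 7) and B cells (5 of 5) were highest in their own type. For α cells 4 of 6 were, for δ cells 4 of 5, without Lepr, and for PP cells 3 of 4, without Aqp3. The markers of the nonendocrine types, and the hormones of the endocrine types, had also served to assign the cells. For these genes the result was largely fixed by the assignment and is no check of it. Insulin took between 40.8% and 49.3% of UMIs in β cells and between 0.634% and 9.42% in the other 6 types compared, so those sums held some RNA from β cells. The 6 libraries shared 236 of 43207 distinct barcodes, of which 18 were among assigned cells.

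In β cells from KO mice, Ywhaz lay at 19.3, 21.2, and 19.4 CPM (UMI counts relative to the total of the sum), with totals scaled by the trimmed mean of M values (TMM), against 142, 162, and 151 in the WT libraries, in replicate order. The log2 difference was -2.93 (SE 0.0806), with an adjusted p of 1.58e-06 from the quasi-likelihood test of edgeR. A UMI of Ywhaz was still found in 33.5% to 45.5% of KO β cells. The comparisons below used the 2050 of 3472 KO β cells that held none, and all 2565 WT β cells. This choice took shallower KO cells, whose median was 25612.5 UMIs, against 31972.5 in KO β cells with a Ywhaz UMI and 33606 in WT.

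The start regions of 4 members that recur in the results below are shown because each holds the letters of a motif that recurs among the members, marked by capitals. RefSeq windows from 250 bases before to 50 bases after the transcription start, in GRCm38.p6, were found for 69 of the 78 members. The 250 bases before each RefSeq start are printed in the direction of the gene. Starts differ between annotations. In GENCODE vM21 the Mrpl18 gene (chr17:12911349-12916345) covers its whole printed stretch. The Mrps18c and Mrpl12 genes begin within theirs there, at chr5:100798627 and chr11:120484613. The motif in Mrps18c and Mrpl18 is that of ETS factors, and the motif in Mrpl30 and Mrpl12 is that of NRF1, a factor known for activating nuclear genes of mitochondrial proteins.
Mrps18c: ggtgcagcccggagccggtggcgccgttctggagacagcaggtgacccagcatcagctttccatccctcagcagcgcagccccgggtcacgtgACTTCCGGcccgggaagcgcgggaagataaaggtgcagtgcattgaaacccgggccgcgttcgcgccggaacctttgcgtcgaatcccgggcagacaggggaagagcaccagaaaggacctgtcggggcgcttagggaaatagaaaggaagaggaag
Mrpl18: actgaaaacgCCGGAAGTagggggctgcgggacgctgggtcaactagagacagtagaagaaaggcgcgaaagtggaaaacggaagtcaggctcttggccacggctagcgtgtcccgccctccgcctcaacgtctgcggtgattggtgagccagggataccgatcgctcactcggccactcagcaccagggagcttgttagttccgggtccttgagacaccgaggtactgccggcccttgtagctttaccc
Mrpl30: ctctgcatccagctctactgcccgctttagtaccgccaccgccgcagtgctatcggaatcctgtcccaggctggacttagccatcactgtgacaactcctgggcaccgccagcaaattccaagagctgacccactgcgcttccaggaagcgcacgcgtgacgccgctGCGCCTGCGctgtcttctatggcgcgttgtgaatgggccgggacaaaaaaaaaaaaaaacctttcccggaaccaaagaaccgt
Mrpl12: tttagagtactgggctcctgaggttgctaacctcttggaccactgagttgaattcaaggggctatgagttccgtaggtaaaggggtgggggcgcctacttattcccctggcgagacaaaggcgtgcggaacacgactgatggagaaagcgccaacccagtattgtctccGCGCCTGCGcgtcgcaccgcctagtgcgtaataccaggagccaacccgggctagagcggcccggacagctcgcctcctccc

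The first stretch is Mrps18c (chr5:100798509-100798758, plus strand), a member called higher than in β cells in each of the 6 comparisons below. The second is Mrpl18 (chr17:12916092-12916341, minus strand), which had the largest differences in macrophages and B cells. The other pair is Mrpl30 (chr1:37890227-37890476, plus strand) and Mrpl12 (chr11:120484387-120484636, plus strand), which were both called lower in α, δ, and PP cells. Searched on both strands, the NRF1 motif GCGCNTGCG stood in 24.0% of the 75 windows of members, some of which have more than 1 start, and in 6.31% of all 32851 windows. The ETS motif CCGGAAGT stood in 16.0% of member windows and 3.89% of all windows, and the YY1 motif AAGATGGCG in 10.7% and 1.40%. The cAMP response element TGACGTCA stood in 2.67% of member windows and 1.79% of all windows. At least 1 of the 4 motifs was present for 37 of 69 members, and matches of different motifs overlapped in 10 of all windows. These are matches of letters and carry no statement on binding.

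In β cells the members spanned a 24.6-fold range. A level is given here as CPM after the UMIs of the islet hormones and of mitochondrially encoded genes were left out, because these took between 50.3% and 57.3% of β cell UMIs. The assay counts 3′ ends, so a level does not depend on transcript length, although genes can still differ in how well they are captured. Mrps33, a small subunit protein particular to mitochondria, was the highest at 216 ± 28.0 (SD, n = 6). It was followed by Mrpl52 (163 ± 14.6), a protein of the large subunit's central protuberance, Mrps21 (153 ± 32.6), and Mrpl54 (142 ± 15.7). The SD intervals of Mrpl52, Mrps21, and Mrpl54 overlapped, although within a library Mrpl52 was above Mrpl54 in 6 of 6 libraries. The lowest were Mrps27 (8.80 ± 0.762), Mrps22 (13.0 ± 1.47), Mrps6 (13.5 ± 0.934), and Mrps2 (16.1 ± 1.39), all of the small subunit. The 10 highest members held 27.7% of the summed level.

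Neither subunit stood at a distinct level in β cells. The median level was 59.8 over the 49 large subunit members and 54.8 over the 29 small subunit members. Members with a bacterial counterpart had a median of 59.7 in the large and 61.0 in the small subunit, and those particular to mitochondria 60.0 and 54.8. The 4 members of the stalk that recruits translation factors (Mrpl10, Mrpl11, Mrpl12, and Mrpl53) ranged from 48.7 to 98.8, and the 6 members around the exit of the peptide tunnel from 18.3 to 125.

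Summed over all 78 members, WT β cells had levels of 4733, 5216, and 5060 and KO β cells of 4840, 5956, and 5258, each in replicate order. KO library 2 was the highest and WT library 1 the lowest, and KO library 1 lay below WT libraries 2 and 3, so the genotypes overlapped. Between libraries of the same number KO was higher in 3 of 3. The means were 5003 ± 247 in WT and 5351 ± 564 in KO (SD, n = 3 each). The same library stood highest elsewhere. KO library 2 had the highest summed level in 6 of the 7 cell types compared, the exception being δ cells, in which WT library 2 led. Within each genotype, replicate 2 was the highest of its 3 libraries in 7 of 7 types.

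**Figure D1:**
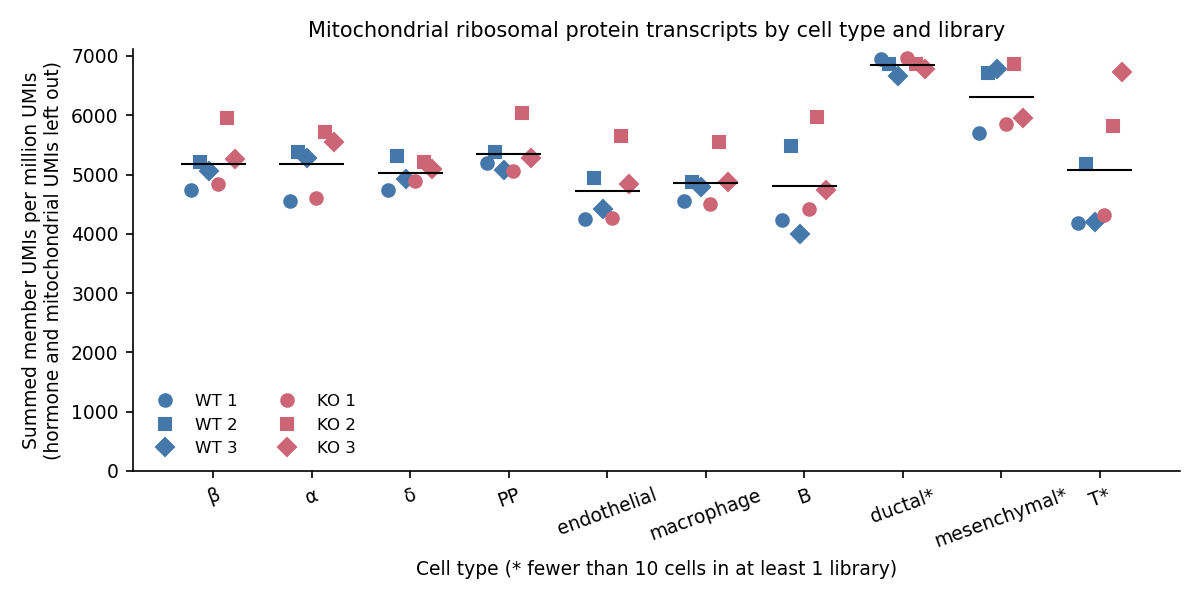
Summed level of the 78 members in each cell type and library, in CPM without hormone and mitochondrial UMIs; blue is WT, red is KO, the symbol gives the replicate number and the line the mean of 6 libraries. KO library 2 (red square) is highest in 6 of the 7 types compared, and the 7 types span overlapping ranges, from 3991 in a B cell sum to 6044 in a PP cell sum.

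No member was called changed in KO β cells. A call required an adjusted p below 0.05 after Benjamini-Hochberg adjustment over all 9446 genes tested with edgeR and an absolute log2 fold change above 0.1, and only 1 gene, Ywhaz itself, met it (0.0106% of genes). Because KO cells had been chosen for lacking a Ywhaz UMI, that call is no finding. Of the 77 members tested, 4 had an unadjusted p below 0.05 in edgeR and 4 in DESeq2, which also called 0 members. The remaining member, Mrps27, had a UMI in 13.2% of WT and 11.2% of KO β cells and fell under the minimum of 15% of cells. Fitted with the replicate number as a block, 12 members had an unadjusted p below 0.05 and 0 were called, against 9 called genes in all (0.0953%). Over all 9446 genes tested the block moved the number at that p from 455 to 1122.

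The directions leaned upward. Of the 77 members, 58 were higher and 19 lower in KO, and their median log2 fold change was 0.08, against 0.002 over all genes tested. Large subunit members were higher in 36 of 49 cases (median 0.08) and small subunit members in 22 of 28 (median 0.08). The size of the lean depended on single KO libraries. Without KO library 2, 35 of 77 members were higher and the median was -0.02. Without KO library 1, 66 were higher with a median of 0.16. In that edgeR fit 20 members had an unadjusted p below 0.05 and 0 were called. Without replicate 2 of both genotypes 46 were higher with a median of 0.02. Between libraries of the same number, the median log2 difference of KO over WT, on the scale of log2(value + 1), was -0.02 in replicate 1, 0.21 in replicate 2, and 0.04 in replicate 3, with 32, 66, and 56 of 77 members higher in KO.

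**Figure D2:**
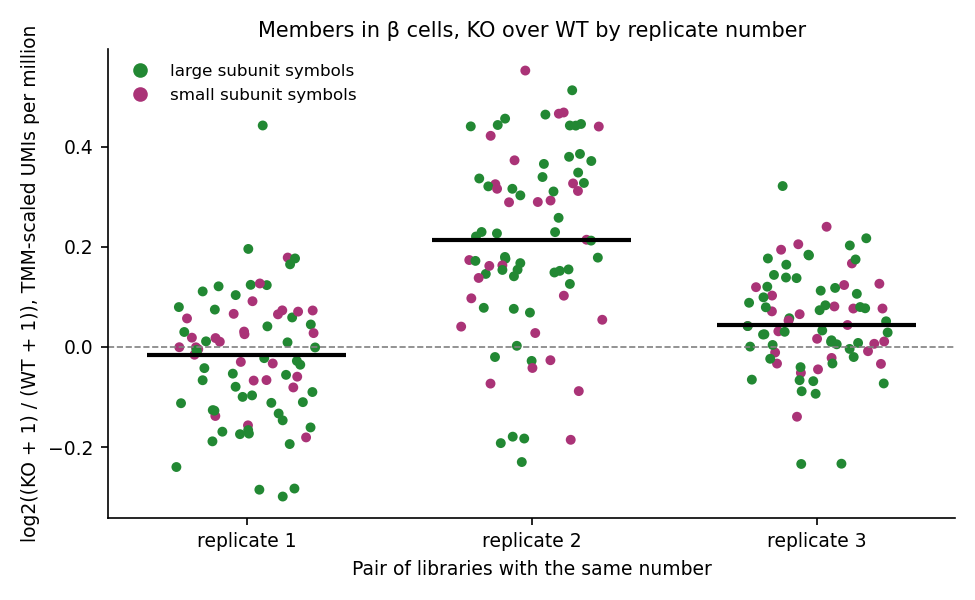
Each point is 1 of the 77 members tested in β cells, placed by the log2 difference between KO and WT libraries of the same replicate number, on TMM-scaled CPM plus 1; green marks large and purple small subunit symbols and the line the median. The points of replicate 2 lie mostly above 0 (66 of 77), those of replicate 1 are spread around it (32 of 77 above).

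Other measures moved with KO library 2. Its β cells were the shallowest, with a median of 20819 UMIs against 28364 to 43777 in WT and 28713 and 30073 in the other KO libraries. Endocrine cells with markers of a second type, which were left out, numbered 881 in KO library 2 and between 53 and 194 in the other libraries. The summed TMM-scaled level of cytosolic ribosomal protein genes in β cells was 58120 CPM in KO library 2 against 46360 to 52810 in the others, and 69 of their 79 tested genes were higher in KO (median log2 0.15). Of the 13 mRNAs encoded in mitochondria, the products of which the mitochondrial ribosome makes, 9 were higher and 4 lower in KO (median 0.08) and 0 were called by edgeR, with 0 at an unadjusted p below 0.05. The part of depth, of mixed barcodes, or of the general ribosomal level in the result was not tested.

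The members with the lowest p values were of similar size. Mrps24, the small subunit protein uS3 at the mRNA entry, was at 44.2, 47.0, and 50.6 TMM-scaled CPM in WT and at 48.3, 69.4, and 58.5 in KO. KO libraries 2 and 3 were above all WT libraries, but KO library 1 was not. KO over WT gave a log2 of 0.31 (SE 0.125, adjusted p = 0.862 in edgeR). The gene (chr11:5703983-5715680, minus strand) shares exon bases on its strand with Urgcp, and how reads from the shared bases were counted was not checked.

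Mrpl30, Mrpl15, and Mrpl51, all of the large subunit, followed upward, and in each of them every KO library was above every WT library. Mrpl30 was at 56.3, 55.2, and 54.1 in WT and 58.1, 70.5, and 62.4 in KO (log2 0.21, SE 0.0838). Mrpl15 was at 20.9, 19.1, and 22.1 in WT and 24.1, 25.04, and 22.5 in KO (log2 0.20, SE 0.0843). Mrpl51 was at 40.4, 41.8, and 41.7 in WT and 42.6, 57.2, and 47.5 in KO (log2 0.25, SE 0.105). The adjusted p of each was 0.862 in edgeR, and the gap between the genotypes was small beside the spread among KO libraries for all 3 of them. In all, 6 members (Mrpl15, Mrpl30, Mrpl50, Mrpl51, Mrpl4, and Mrps36) had every KO library above every WT library, which is 7.79% of 77 against 5.71% of all genes tested. Mrpl50 and Mrpl4 are named here after their values were seen. With the same TMM-scaled values 0 members had every KO library below every WT library, against 5.66% of all genes.

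Among the members that leaned down, Mrpl18, Mrpl19, Mrpl10, and Mrpl44 had the lowest p values. Mrpl18 was at 23.4, 19.9, and 21.4 in WT and 19.1, 21.0, and 18.04 in KO (log2 -0.16, SE 0.0918). The log2 fold changes of Mrpl19 and Mrpl10, which helps build the stalk, were -0.14 and -0.13, and for both KO was lower in each of the 3 replicate numbers. Mrpl44 was at -0.09. All of these had unadjusted p values of at least 0.115 in edgeR, and WT and KO libraries overlapped on the TMM scale. On the scale of levels without hormone and mitochondrial UMIs, Mrpl10 lay at 45.5 to 46.5 in KO and 47.5 to 55.9 in WT, and Mrpl18 reached at most 42.4 in KO and at least 42.6 in WT, so the overlap of these 2 depended on the scale.

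The 6 members that the study's gene tables list were Mrpl23, Mrps34, Mrps24, Mrpl14, Mrpl41, and Mrps36. They were listed from these same mice, so their direction here is no independent evidence. The study reported changed genes in KO β cells at the same limits of FDR, fold change, and share of cells. Its unit of test may differ from the sums per library used here, so the calls are not like for like. All 6 were higher in KO in each of the 3 replicate numbers, with log2 fold changes between 0.23 and 0.37, and 0 of 6 were called by edgeR with or without the block. Mrpl23, next to the exit of the peptide tunnel, showed the largest, at 40.9, 60.4, and 56.0 in WT and 55.9, 82.3, and 65.3 in KO (log2 0.37, SE 0.170, adjusted p = 0.862 in edgeR). Here each KO library was above the WT library of the same number, yet the genotypes overlapped because replicate 1 was the lowest of both. Blocked by replicate number, Mrpl23 reached an adjusted p of 0.163 in edgeR. Mrps34 (chr17:24895116-24897502, plus strand), a stabilizing protein of the small subunit, was at 47.4, 48.1, and 45.1 in WT and 48.0, 64.8, and 53.5 in KO, and shares exon bases on its strand with Nme3.

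**Figure D3:**
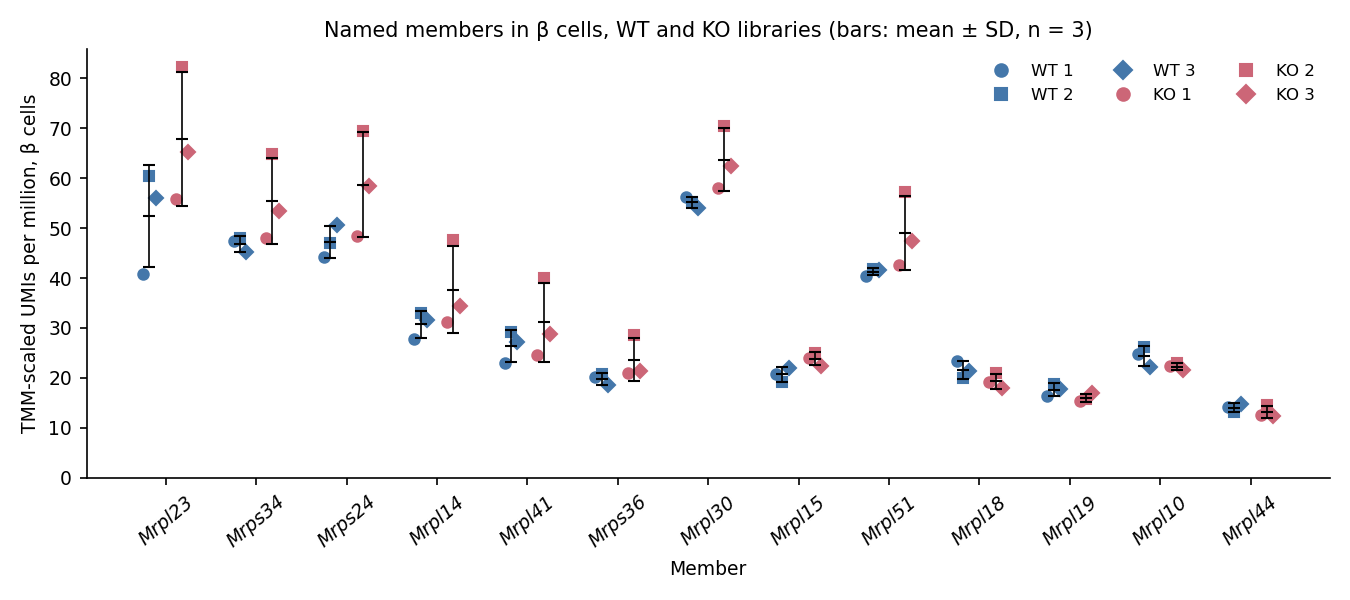
TMM-scaled CPM of the 13 named members in β cells of each library, blue for WT and red for KO, with the replicate number as the symbol and bars for the mean ± SD of 3 libraries. For the first 9 members the KO mean is higher, with KO library 2 (red square) on top in each, and the genotypes lie close together for the last 4.

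The rest of the mitochondrial translation apparatus gave 0 calls in KO β cells as well. Of the 5 mitoribosome genes with other symbols (Dap3, Ptcd3, Chchd1, Aurkaip1, and Gadd45gip1) 4 were higher, with a median log2 of 0.07. Of 9 translation factors tested 4 were higher (median -0.003), and of 20 assembly factors 11 (median 0.008). Of 12 aminoacyl-tRNA synthetases 5 were higher (median -0.03). At an unadjusted p below 0.05 edgeR gave 1, 0, 1, and 0 genes in these 4 lists.

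In the 6 other cell types, in which Ywhaz was not targeted, 0 members were called either. Over these types together 2 of 46277 gene tests were called by edgeR (0.00432%), DESeq2 called 0 members, and 4, 1, 4, 5, 4, and 0 members had an unadjusted p below 0.05 in α, δ, PP, endothelial, macrophage, and B cells. Members were higher in KO in 51 of 77 cases in α cells (median log2 0.05), 37 of 77 in δ cells (-0.01), 50 of 75 in PP cells (0.08), 66 of 76 in endothelial cells (0.12), 62 of 76 in macrophages (0.15), and 58 of 69 in B cells (0.20). Refitted with the replicate number as a block, edgeR called 0 members in each type. At an unadjusted p below 0.05 the block gave 6, 2, 5, 10, 5, and 2 members, in the same order of types. Over all genes the number at that p moved from 327, 330, 420, 255, 437, and 67 to 500, 448, 460, 703, 658, and 203. Genes called with the block numbered 2, 7, 10, 3, 29, and 8 of 8900, 9352, 8984, 7804, 6776, and 4461 tested. The sums of these types come from the same libraries as the β cell sums. The replicate 2 pair had the largest median of the 3 pairs in PP, endothelial, and macrophage sums, at 0.18, 0.23, and 0.23. In α cells it was 0.05 in both replicates 2 and 3, in B cells 0.15 in replicate 2 and 0.25 in replicate 3, and in δ cells replicate 2 had the lowest, -0.04. A term for the difference of the KO effect between each type and β cells called 0 of 78 members in each of the 6 types with edgeR, with between 0 and 3 at an unadjusted p below 0.05, against 17 of 77373 tests over all genes (0.0220%).

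Single members stood out in other types without passing the test. In endothelial cells Mrpl14, at the face between the subunits, was at 33.9, 35.5, and 34.8 TMM-scaled CPM in WT and 47.7, 59.1, and 45.7 in KO, with no overlap (log2 0.55, SE 0.141, adjusted p = 0.979 in edgeR). In α cells Mrpl1 was at 28.3, 35.9, and 30.3 in WT and 51.4, 44.8, and 44.7 in KO (log2 0.55, SE 0.154, adjusted p = 1.0 in edgeR). Both were picked after their values were seen, as the lowest p of their type. Members with every KO library above every WT library numbered 11 of 76 in endothelial cells, or 14.5% against 4.47% of all genes tested there. In the other types they numbered 6 of 77 in α cells (4.81% of all genes did so), 3 of 77 in δ cells (4.22%), 7 of 75 in PP cells (5.02%), 6 of 76 in macrophages (6.30%), and 5 of 69 in B cells (3.27%). Members with every KO library below numbered 3 of 77 in δ cells (4.22% of all genes) and 3 of 75 in PP cells (4.98%). There were 0 in α cells (5.12%), endothelial cells (4.50%), macrophages (6.02%), and B cells (4.19%).

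Set against β cells, members differed in both directions in each other endocrine type. Each type was fitted with edgeR against β cells with the library as a block, so that 6 libraries contributed 1 sum of each type, and 78 of 78 members passed the filter. The 6 comparisons share their β cell sums, so the differences of a member are not independent between them. The choice of scale mattered for the nonendocrine cells, and 2 are given: TMM, and totals without hormone and mitochondrial UMIs.

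Among endocrine cells, 30 members were called in α, 34 in δ, and 29 in PP cells. In α cells 20 members were called higher (26.5% of all genes were) and 10 lower (28.8% of all genes), with a median log2 of 0.02 against -0.01 over all genes. In δ cells 14 were higher (26.5% of all genes) and 20 lower (28.6%), with a median of -0.07 against -0.01. In PP cells 18 were higher (20% of all genes) and 11 lower (24.0%), with a median of 0.08 against -0.04. With the second scale 16 were higher and 17 lower in α cells (21.4% and 33.7% of all genes), 14 and 19 in δ cells (26.7% and 28.2%), and 14 and 14 in PP cells (18.3% and 26.4%). The median in α cells turned to -0.06, and 0 members were called in opposite directions by the 2 scales.

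The nonendocrine cells gave larger counts that turned with the scale. With TMM, 47 members were higher and 15 lower in endothelial cells (40.4% and 43.4% of all genes), 59 and 4 in macrophages (34.1% and 39.6%), and 55 and 0 in B cells (31.1% and 38.5%). The medians were 0.24, 0.66, and 0.71 against -0.06, -0.14, and -0.13 over all genes. Without hormone and mitochondrial UMIs in the totals, 23 were higher and 37 lower in endothelial cells (29.0% and 57.0% of all genes), 18 and 28 in macrophages (17.2% and 66.3%), and 15 and 24 in B cells (15.9% and 65.3%), and the medians were -0.17, -0.11, and -0.10 against -0.47, -0.91, and -0.97. The direction of the group therefore depended on the scale, while its median lay above that of all genes on both. Because genes passed the filter mostly through β cell sums, which lowers the values over all genes, no conclusion is drawn from that gap. The β cell sums held 16446135 to 36935388 UMIs, and the macrophage sums 854136 to 1563846. Calls in the same direction on both scales numbered 23 higher and 15 lower in endothelial cells, 18 and 4 in macrophages, and 15 and 0 in B cells. Calls in opposite directions numbered 6, 9, and 2.

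**Figure D4:**
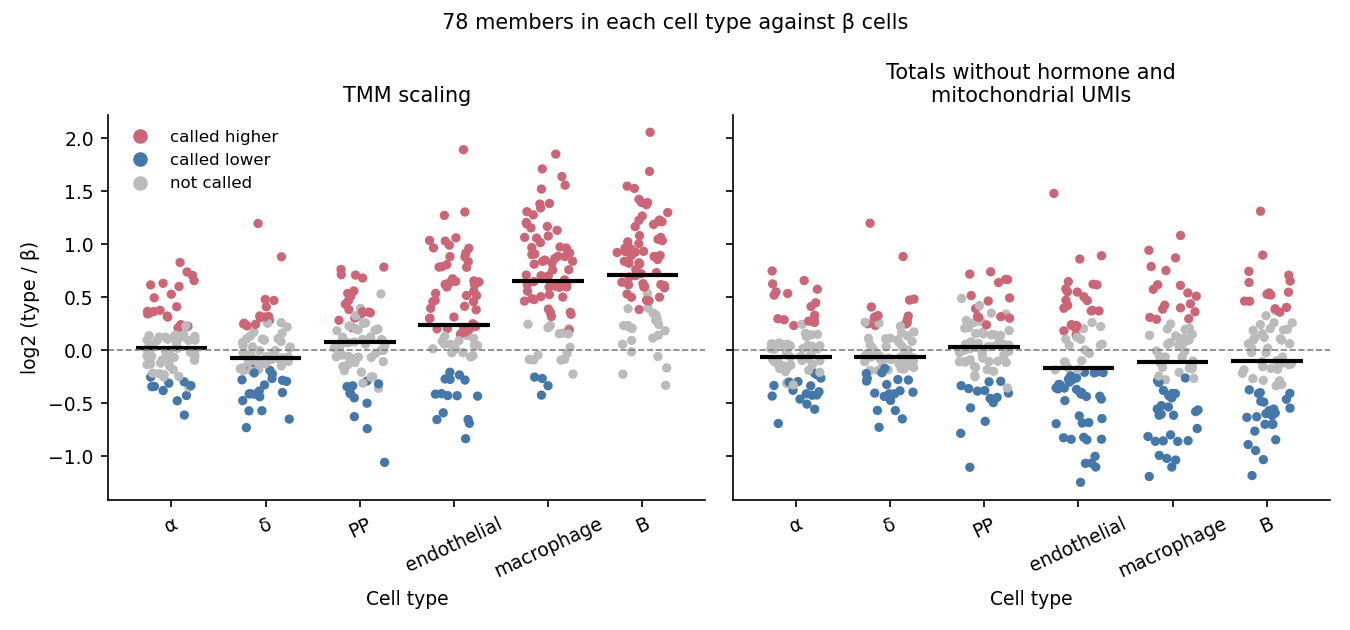
log2 difference of the 78 members between each cell type and β cells with TMM (left) and with totals that leave out hormone and mitochondrial UMIs (right); red was called higher, blue lower and grey not called, and the line is the median. The cloud of endothelial cells, macrophages, and B cells moves from medians of 0.24, 0.66, and 0.71 to -0.17, -0.11, and -0.10, while α, δ, and PP cells keep medians within 0.08 of 0.

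A few members differed clearly between β cells and other endocrine cells. Mrpl41, of the large subunit, had a level of 46.6 to 80.9 (median 59.3) over the 6 β cell sums and of 76.9 to 121 (median 102) in α cells. It was higher in α cells in 6 of 6 libraries, with a log2 difference of 0.83 (SE 0.0895, adjusted p = 7.85e-08 in edgeR with TMM). Mrpl36, a small protein of the large subunit with a bacterial counterpart, lay between 77.1 and 95.2 (median 78.9) in β cells, between 114 and 148 (median 127) in α cells, and between 135 and 161 (median 157) in δ cells. No α or δ sum overlapped with a β sum. The log2 differences were 0.74 (SE 0.0652) in α and 0.88 (SE 0.0691) in δ cells with TMM. Mrpl36 levels in endothelial cells, at 55.1 to 79.9, were under or within the β cell range. With TMM, Mrpl41 was called higher than in β cells in 6 of 6 types and Mrpl36 in 5, nonendocrine types included. Only in α, δ, and PP cells was either called higher on both scales.

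Mrps6 had the largest difference of any member in δ and endothelial cells. Its level was 12.3 to 14.7 in β cells, 24.4 to 39.6 in δ cells, and 32.6 to 48.7 in endothelial cells, without overlap. The log2 differences were 1.19 (SE 0.137) in δ and 1.89 (SE 0.0899) in endothelial cells, and 1.20 and 1.48 on the second scale. Mrps6 (chr16:92058270-92112227, plus strand) shares exon bases on its strand with Slc5a3, an inositol transporter gene. A read from the shared bases fits both genes. How such reads were counted was not checked, so the level of Mrps6 may be affected. In B cells, where its counts are few, it ranged from 0 to 23.1.

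Proteins of the stalk were among the members called lower in the other endocrine cells. Mrpl12, which also binds the mitochondrial RNA polymerase, had a level of 54.7 to 77.0 (median 62.2) in β cells, 29.0 to 54.9 (43.1) in α cells, 27.4 to 58.4 (44.1) in δ cells, and 26.2 to 51.1 (39.7) in PP cells. Its log2 difference was -0.48 (SE 0.0973) in α and -0.63 (SE 0.140) in PP cells with TMM, and it was lower in 6 of 6 libraries in both. Endothelial cells, at 80.0 to 107, and macrophages, at 84.1 to 111, were above the β cell range, so β cells were intermediate. Mrpl10 lay between 45.5 and 55.9 in β cells and between 30.4 and 39.5 in α cells, and was also low in endothelial cells (21.9 to 36.8) and macrophages (19.6 to 30.1). The stalk list, 4 members in all, had 2 called lower in α, 3 in δ, and 2 in PP cells, and 0 called higher. Of all genes, 28.8%, 28.6%, and 24.0% were called lower in these types with TMM. The list is short, and no test was made of it.

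Mrps34 and Mrpl28 were lower in several types. Mrps34 had a level of 96.3 to 131 in β cells and of 44.2 to 79.7 in α cells, 60.6 to 90.2 in endothelial cells, and 41.0 to 55.3 in macrophages. Its log2 difference was -0.61 (SE 0.0768, adjusted p = 6.97e-07) in α cells and -0.42 (SE 0.0845, adjusted p = 3.23e-04) in macrophages in edgeR with TMM, and it was lower in 6 of 6 libraries in both. Mrpl28, with a bacterial counterpart in the large subunit, was at 86.4 to 111 in β cells, 49.9 to 62.1 in δ cells, and 31.1 to 50.9 in endothelial cells, with no overlap. The log2 differences were -0.73 (SE 0.0835) in δ and -0.83 (SE 0.0741) in endothelial cells. Levels of Mrpl28 in α cells, at 73.1 to 96.1, overlapped with those in β cells.

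The highest called members in the other comparisons were of several kinds. In δ cells Mrps31 was higher (log2 0.48, SE 0.102), and Mrps18b (-0.65, SE 0.0947) and Mrps23 (-0.57, SE 0.0877) were lower. In PP cells Mrpl35 (0.78, SE 0.146) and Mrpl32 (0.71, SE 0.124), both large subunit proteins with bacterial counterparts, were higher, and Mrps2 (-1.06, SE 0.324) and Mrpl37 (-0.74, SE 0.257) were lower. The call of Mrpl37 did not hold in DESeq2 (adjusted p = 0.0544) or without WT replicate 2, WT replicate 3, or KO replicate 3 (adjusted p up to 0.0972 in edgeR). In α cells Mrps14, a small subunit protein, was lower (-0.43, SE 0.0771). In endothelial cells Mrpl15 (1.30, SE 0.0751) and Mrpl35 (1.27, SE 0.0768) were higher, and Mrps26 (-0.69, SE 0.0735) and Mrps33 (-0.65, SE 0.0588) were lower, so that the most abundant member in β cells was among the lowest relative to β cells here. All of these are edgeR values with TMM, and each of these 4 endothelial calls also held on the second scale.

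Mrpl18 was the member with the largest difference in macrophages and B cells. Its level reached 47.6 at most (median 42.5) in β cells, 79.7 to 102 (median 90.0) in macrophages, and 56.1 to 137 (median 86.0) in B cells, without overlap. With TMM the log2 difference was 1.85 (SE 0.0957) in macrophages and 2.05 (SE 0.213) in B cells, and 1.08 and 1.31 on the second scale. In the other endocrine cells Mrpl18 was not called with TMM, and its level there, from 20.7 to 56.3, reached into the β cell range. The B cell sums of WT library 3 and KO library 1 held only 26 and 13 cells. They still carried weight: without WT library 3 the B cell median over all members fell from 0.71 to 0.40 with TMM.

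Mrpl52, of the central protuberance like Mrpl18, was at 151 to 186 in β cells and 253 to 356 in macrophages (log2 1.64 with TMM and 0.87 on the second scale). Mrps36, the dehydrogenase component, was at 39.7 to 58.0 in β cells and called higher in each type with TMM, but not in endothelial cells on the second scale. Its log2 difference with TMM was 0.71 (SE 0.0868) in α cells, 0.76 (SE 0.130) in PP cells, 1.71 (SE 0.0824) in macrophages, and 1.69 (SE 0.174) in B cells. Mrps22 was higher in B cells (1.55, SE 0.238) from a low β cell level. In macrophages Mrpl53 (-0.33, SE 0.112) and Mrps12, which lines the decoding site (-0.27, SE 0.0843), were called lower, and both calls were lost when the limit on the mitochondrial share was 20% (adjusted p = 0.0549 and 0.0622 in edgeR). The call of Mrpl53 was also lost without WT replicate 1 (adjusted p = 0.0530 in edgeR).

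Mrps18c, picked after its values were seen, was called higher than in β cells in each comparison and on both scales. It is 1 of 3 relatives of the bacterial S18 protein, with Mrps18a and Mrps18b. Its level was 51.6 to 72.6 (median 61.8) in β cells, with medians of 71.5 in α, 70.4 in δ, 78.4 in PP, and 81.5 in endothelial cells, 104 in macrophages, and 93.3 in B cells. Only in macrophages did all 6 sums lie above all β cell sums, but within each library Mrps18c was higher than in β cells in 6 of 6 libraries in every type. The log2 difference with TMM ran from 0.25 (SE 0.0769) in δ cells to 1.56 (SE 0.0763) in macrophages. Mrps18b went the other way in α, δ, and PP cells, where it was called lower.

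The rest of the translation apparatus was set against β cells in the same fits, and no test was made between these lists and the members. In δ cells 3 of the 5 mitoribosome genes with other symbols were lower and 0 higher (median -0.36), and in PP cells 3 lower and 0 higher (-0.26), with the same counts on both scales. In α cells 2 were lower and 1 higher with TMM (-0.13), and 3 and 0 on the second scale. With TMM the shares of all genes called lower and higher were 28.6% and 26.5% in δ, 24.0% and 20% in PP, and 28.8% and 26.5% in α cells. On the second scale they were 28.2% and 26.7%, 26.4% and 18.3%, and 33.7% and 21.4%. A list of 5 genes is short beside such shares. In endothelial cells, where 43.4% of all genes were lower and 40.4% higher with TMM, 10 of 17 aminoacyl-tRNA synthetases, which charge mitochondrial tRNAs, were lower and 2 higher (median -0.49), and on the second scale 14 were lower and 1 higher (-0.90). Of 11 translation factors 5 were higher and 3 lower in endothelial cells with TMM (median 0.22), but 2 higher and 5 lower on the second scale (-0.20). Of 25 assembly factors 7 were higher and 7 lower with TMM (median -0.07), and 2 and 16 on the second scale (-0.48). On the second scale 57.0% of all genes were lower and 29.0% higher in endothelial cells, with a median of -0.47. The median of the assembly factors therefore lay near that of all genes.

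The order of the members was largely shared between types. Spearman's correlation of mean levels across the 78 genes, which are not independent replicates and come from the same libraries, was 0.943 between β and α cells, 0.938 with δ, and 0.92 with PP cells. It was 0.824 with endothelial cells, 0.828 with macrophages, and 0.819 with B cells. The summed level of the members was close in all 7 types when hormone and mitochondrial UMIs were left out. It was 5340 ± 365 in PP, 5180 ± 489 in α, 5177 ± 433 in β, and 5029 ± 218 in δ cells, and 4858 ± 376 in macrophages, 4804 ± 769 in B cells, and 4728 ± 539 in endothelial cells (SD, n = 6 each). The ranges of all 7 types overlapped. Within a library, however, endothelial cells and macrophages lay below β cells in 6 of 6 libraries, and PP cells above them in 6 of 6.

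In CPM over the UMIs of all genes, by contrast, β and PP cells had the least, at 2466 ± 262 and 2572 ± 143. Their ranges, 2023 to 2766 in β and 2414 to 2784 in PP cells, overlapped. The means were 3510 ± 349 in α cells and 3618 ± 102 in δ cells. Endothelial cells, macrophages, and B cells had 4395 ± 397, 4430 ± 241, and 4214 ± 632. Hormone and mitochondrial UMIs made up 50.1% to 53.9% of PP, at least 31.6% of α, and 25.9% to 29.8% of δ cell UMIs, and 4.29% to 14.6% in the other 3 types. Among types too sparse to compare, ductal cells had the highest summed level, 6663 to 6965 over 6 libraries without hormone and mitochondrial UMIs and above every sum of the 7 types compared, of which the highest was 6044.

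The balance of the subunits differed little among endocrine cells and more in endothelial cells. UMIs of Mrpl symbols divided by those of Mrps symbols gave 1.79, 1.73, and 1.72 for WT and 1.74, 1.69, and 1.73 for KO β cells in replicate order, with a mean of 1.74 ± 0.0396 in WT and 1.72 ± 0.0239 in KO (SD, n = 3). The genotypes overlapped. Wilson 95% intervals, which cover counting error only, were 1.76 to 1.82 for WT library 1 and 1.66 to 1.72 for KO library 2. The mean over 6 libraries was 1.79 ± 0.0492 in α, 1.72 ± 0.0465 in δ, and 1.78 ± 0.0735 in PP cells, which do not differ from 1.73 ± 0.0324 in β cells beyond their spread.

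Endothelial cells had a ratio of 2.04 ± 0.0641, from 1.97 to 2.15, above every β cell sum. Macrophages followed with 1.84 ± 0.0645, from 1.78 to 1.95, and were above the β cell sum of the same library in 6 of 6 libraries, although the ranges met. B cells had 1.73 ± 0.117, with an interval as wide as 1.36 to 2.32 in KO library 1. With Mrps30 and Mrps18a moved to the large subunit and Mrps36 left out, the mean was 1.92 in β cells and 2.32 in endothelial cells. The ratio is a description of captured transcripts and no test was made of it.

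**Figure D5:**
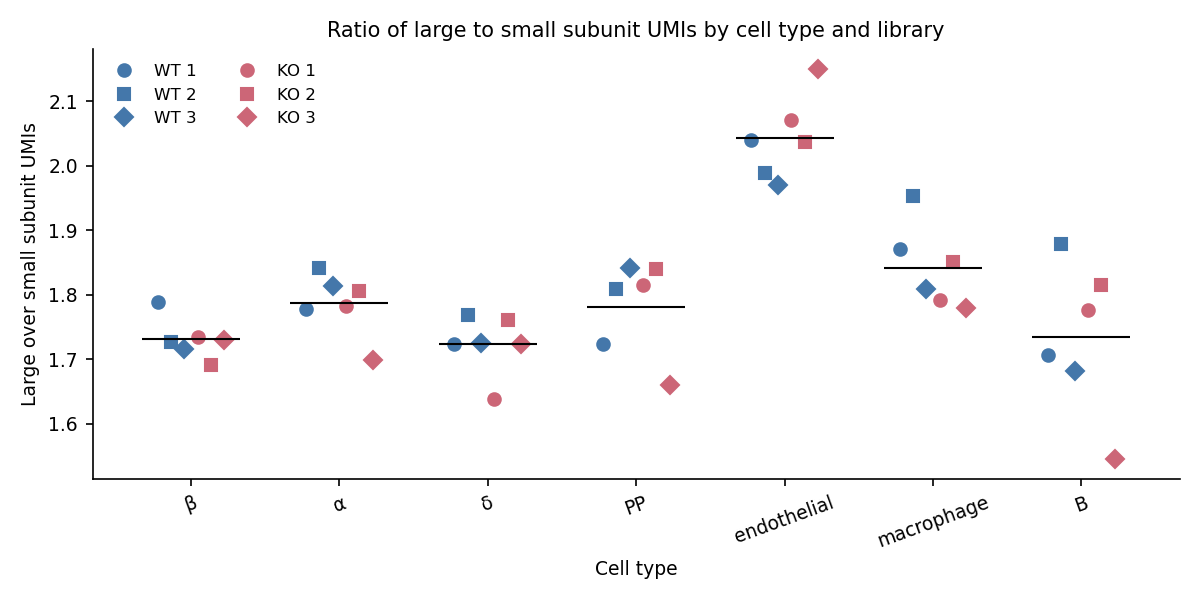
Ratio of large to small subunit UMIs in each library and cell type (the axis does not start at 0); blue is WT, red KO, the symbol gives the replicate number, and the line is the mean of 6 libraries. Endothelial sums lie between 1.97 and 2.15, above the β cell sums of 1.69 to 1.79, and WT and KO overlap in β cells.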

How the data were processed

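Islets of both genotypes, with 3 libraries each, were profiled by droplet single-cell RNA-Seq. The authors made the libraries with the 10x 3′ v3.1 kit and deposited, for each barcode called as a cell, the count of UMIs per gene, as raw whole numbers. Cell Ranger 6.0.2 and the build mm10 are named per the file headers and the submitters' processing notes. The study gives 3 mice per genotype for these data, so each library was taken as 1 mouse, and p-values measure the spread between libraries. No column of unmapped samples was present.

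Barcodes with under 500 genes (3485) or over 10% mitochondrial UMIs (12956) were left out. Endocrine cells needed 5000 UMIs, 1500 genes, and an insulin share of at least 20%, a Gcg share of at least 5%, an Sst share of at least 3%, or a Ppy share of at least 5%, with little of the other hormones. Other cells needed 3 markers of a type and at least 2 times the marker UMIs of any other. No doublet caller was run. Barcodes with a dominant hormone and 3 markers of another type (1305) were left out as mixed, and 11641 stayed unassigned. These limits were set after the hormone shares were seen and before genotypes were compared, and 692 deep barcodes lay within 2 percentage points of the insulin limit. No pair of libraries of the same genotype agreed within sampling noise in their β cell sums, and pairs of WT with KO were not checked in this way. The members and gene lists were chosen with earlier results of these data known.

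UMIs were summed per library and type and tested with edgeR 4.0.16 (quasi-likelihood, TMM, Benjamini-Hochberg) in R 4.3.3, with calls at FDR 0.05 and log2 0.1. Genes needed a UMI in over 15% of cells of either genotype, or, between types, a mean of 10 UMIs per sum. DESeq2 1.42.0, no filter, cells with a Ywhaz UMI, depth and mitochondrial limits, other totals, and each library left out were tried. The fits were tested on simulated data. Sums with the same replicate number deviated together in β cells (r = 0.502, 0.431, and 0.225, against at most 0.0134 between other numbers). For KO against WT, the members called and those with an unadjusted p below 0.05 are therefore also given with the block by number. Named members were those with the 4 lowest p in each direction in β cells, those of the study's tables, up to 3 called members in each direction with the largest difference in each type, and the 4 highest and lowest in β cells. Gene coordinates are those of GENCODE vM21 (GRCm38, the same assembly as mm10), in which 78 of 78 members were found. Of these 3 share exon bases on their strand with another gene. How reads were counted that fit both genes, or a pseudogene copy of a member (Mrpl23, Mrpl48, and Mrps36), was not checked. The NRF1 and YY1 motifs were searched as 9-letter cores, chosen after matches to forms with 1 more letter had been counted.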

Additional observations from a re-analysis of the deposited data

How the results depend on the processing

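In β cells, 0 members were called in KO against WT by edgeR in any of its 13 alternatives, or by DESeq2. The count of members higher in KO, 58 of 77, ran from 35 to 66 when 1 library was left out. Without KO replicate 2 the direction reversed, to 35 higher and 42 lower. The count was 58 with the replicate number as a block and 46 without replicate 2 of both genotypes, the last chosen after seeing the data. The block moved the count of members with an unadjusted p below 0.05 from 4 to 12 and changed no call of a member.

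The median log2 of the members over β cells, whose alternatives were chosen after seeing the data, reversed with hormone and mitochondrial UMIs left out of the totals, to -0.062 in α, -0.17 in endothelial, and -0.10 in B cells and -0.11 in macrophages. Without the filter on low counts it became -0.058 in α, -0.0028 in PP, and 0.12 in endothelial cells and 0.48 in macrophages. In macrophages it was 0.59 in DESeq2 and 0.70 without the top 5% of barcodes. With 1 library left out, the α cell median ran from -0.0037, without KO replicate 3, to 0.052, without WT replicate 1, the PP cell median fell to 0.045 without WT replicate 2, and the B cell median to 0.40 without WT replicate 3.

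The ratio of large to small subunit UMIs in β cells, 1.73, moved to 1.92 with subunits assigned by structure and to 1.86 without the most abundant member of each, and ran from 1.72 to 1.74 with 1 library left out (chosen after seeing the data). Calls of Mrpl37 in PP cells and of Mrpl53 and Mrps12 in macrophages were lost in some settings, and the cause of these changes was not tested. PP and B cell sums rest on as few as 15 and 13 cells in a library, which limits precision there.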
